A study of Saccharomyces cerevisiae with 18 samples.

Results

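Messenger RNA of 2 budding yeast strains, one with PHO23 deleted and one carrying the PHO23 allele of strain CLIB215, was set against that of 4 strains made in the same background. The 4 had RXT3 deleted, RXT3 from strain T73, RXT3 from strain CLIB215 and PHO23 from strain T73. All were derived from BY4741, a haploid laboratory strain of Saccharomyces cerevisiae of mating type a, were inoculated at an OD of 0.1 into YP medium with the pentose sugar xylulose, and were harvested in log phase. Each strain was listed with 3 libraries, so the pair stood for 6 of the 18 libraries, but the deposited table held 1 pooled column per strain.

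The table gave log values centred for each ORF. The base of the logarithm was not written and is read here as log2, and a value is not a level, so genes are not compared with each other by value. Of 6650 named ORFs, 4956 had a value in all 6 columns and are called complete. For each of them the mean of the 4 other columns was subtracted from the mean of the 2 columns of the pair, in log units. The division into 2 and 4 was chosen on these same values, each strain had a single column, and read depth is unknown. The differences are therefore a description of 6 columns with no replicate error, no test and no p-value. The deletion and the CLIB215 allele are called the pair, and their values are given in that order. Values of the other 4 follow in the order RXT3 deleted, RXT3 T73, RXT3 CLIB215 and PHO23 T73.

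Pho23 and Rxt3 are subunits of Rpd3L, the large form of the Rpd3 histone deacetylase complex. Rpd3 removes acetyl groups from histone tails near promoters, and the complex is brought to genes by DNA-binding partners such as Ume6, which recognises the URS1 element upstream of genes of meiosis, nitrogen use and metabolism. Rpd3L is best known as a repressor, but it also takes part in the activation of stress genes and in the shutdown of ribosome assembly genes under stress. Pho23 carries a PHD finger, a fold that binds methylated histone tails.

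The labels limit how firmly these columns can be named. For 3 of the 6 groups, the PHO23 deletion among them, the sample titles and the genotype field name different strains. The columns are named here by the titles, which is how the table's own headers read. PHO23 had no value in the column titled as its deletion. It stood at −0.88 in the CLIB215 strain of the pair, against 0.12, −0.07, −0.61 and 0.35 in the other 4. RXT3 stood at −0.15 and −0.36 in the pair, against −0.05, 0.11, 0.23 and 0.14 in the other 4, so its labelled deletion was not visible in its own values. All 8 genes listed as specific to mating type a were complete, though AXL1 among them is expressed by alpha cells too. Of the genes specific to mating type alpha none was, but SAG1 had values in 5 of the 6 columns, STE3 in 2, and MF(ALPHA)1 and MF(ALPHA)2 in 1 each. Of the marker genes that BY4741 lacks, MET17 and LEU2 had no value in any column and URA3 had one only in PHO23 T73 (−1.19). HIS3, only partly deleted in BY4741, had values in all 6 columns, 0.49 and 0.08 in the pair, against −0.14, −0.64, −0.13 and 0.33 in the other 4. The labels do not say whether the 3 libraries of a strain came from separate cultures or clones.

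Of the complete ORFs, 102 were at least 1 unit higher in the pair than in the other 4, which is 2.06% of those compared, and 98 were at least 1 unit lower, or 1.98%. Both columns of the pair lay above all 4 others for 806 ORFs (16.3%) and below all 4 for 912 (18.4%). Since the split was chosen on these values, the counts describe its size and support nothing. When the genotype field was used to name the columns, the same contrast gave 7 higher and 11 lower ORFs, and 222 and 304 whose groups did not overlap. Without the column of the PHO23 deletion, 164 ORFs were at least 1 unit lower. Leaving out either column of the pair gave 1316 and 1349 ORFs above the others, and 1627 and 1503 below, because a single column then had to lie outside.

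The lower side reached further than the higher side. Differences of 2 units or more were found for 13 lower ORFs and for 2 higher ones, and the gap between the nearest columns of the groups was at least 1 unit for 23 lower and 11 higher ORFs. Over all complete ORFs the median difference was −0.05, with 44.8% above 0 and 55.2% below, and its SD across ORFs was 0.472. The columns of the pair were also wider, with SDs across complete ORFs of 0.421 and 0.422, against 0.319, 0.285, 0.282 and 0.309 in the other 4. Values were centred for each ORF and the split was chosen on them, so these SDs are not independent of the split. With each column scaled to a common SD, 55 ORFs were at least 1 unit higher and 68 lower.

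**Figure D1:**
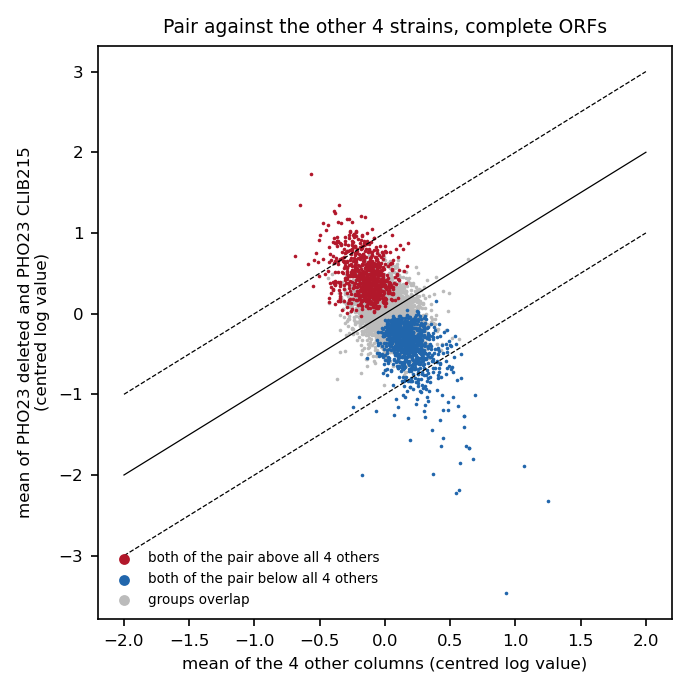
Each point is 1 of 4956 complete ORFs, with the mean of the PHO23 deleted and PHO23 CLIB215 columns (the pair) on the vertical axis and the mean of the 4 other columns on the horizontal axis, both as centred log values. The solid line marks equal means and the dashed lines a difference of 1 unit. Red points (806) have both columns of the pair above all 4 others and blue points (912) have both below. The blue points reach to −3.46, further from the line than the red ones.

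To show what stretches of DNA lay upstream of the genes at both ends of the contrast, promoter windows were read from the RefSeq genome of build R64, from 250 bases before to 50 bases after the annotated start of the gene. The windows below belong to 7 of the genes described in the next paragraphs and are written 5′ to 3′ on the strand of the gene. NSR1 and FAF1, for ribosome assembly, are shown with the PAC element (GCGATGAG) and the RRPE element (AAAATTTT) in capitals on either strand.
NSR1, chrVII:807607-807906, minus strand: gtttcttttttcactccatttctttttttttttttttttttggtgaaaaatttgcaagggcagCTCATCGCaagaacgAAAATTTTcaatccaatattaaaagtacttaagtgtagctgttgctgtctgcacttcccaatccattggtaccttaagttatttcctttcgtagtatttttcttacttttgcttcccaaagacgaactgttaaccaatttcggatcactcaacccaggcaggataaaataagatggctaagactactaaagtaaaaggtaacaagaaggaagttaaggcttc
FAF1, chrIX:314843-315142, plus strand: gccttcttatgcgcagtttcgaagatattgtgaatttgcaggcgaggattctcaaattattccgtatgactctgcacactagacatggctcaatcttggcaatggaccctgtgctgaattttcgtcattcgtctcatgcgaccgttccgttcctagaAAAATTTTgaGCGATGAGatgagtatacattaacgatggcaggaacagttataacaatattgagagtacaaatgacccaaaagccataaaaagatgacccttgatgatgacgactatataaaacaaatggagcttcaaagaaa
CAR1, UME6 and ACS1, also higher in the pair, are shown for the URS1 core (GCCGCC), in capitals on either strand.
CAR1, chrXVI:339694-339993, plus strand: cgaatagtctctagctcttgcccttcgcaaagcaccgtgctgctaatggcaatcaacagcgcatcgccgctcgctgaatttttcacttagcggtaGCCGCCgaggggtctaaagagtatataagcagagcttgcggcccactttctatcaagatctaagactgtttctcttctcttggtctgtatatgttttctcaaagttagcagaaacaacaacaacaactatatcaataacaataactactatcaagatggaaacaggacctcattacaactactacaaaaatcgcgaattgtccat
UME6, chrIV:867473-867772, minus strand: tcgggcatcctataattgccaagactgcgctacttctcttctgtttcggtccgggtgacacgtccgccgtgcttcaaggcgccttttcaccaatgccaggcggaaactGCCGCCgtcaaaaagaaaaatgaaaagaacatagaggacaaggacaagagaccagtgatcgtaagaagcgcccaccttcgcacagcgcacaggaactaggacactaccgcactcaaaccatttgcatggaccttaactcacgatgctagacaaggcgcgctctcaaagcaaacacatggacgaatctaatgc
ACS1, chrI:44973-45272, minus strand: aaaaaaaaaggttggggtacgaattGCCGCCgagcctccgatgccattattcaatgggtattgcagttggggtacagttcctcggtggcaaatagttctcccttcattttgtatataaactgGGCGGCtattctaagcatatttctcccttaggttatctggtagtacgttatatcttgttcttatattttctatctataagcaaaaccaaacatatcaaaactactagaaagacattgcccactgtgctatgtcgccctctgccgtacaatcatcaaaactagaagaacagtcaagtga
HSP12 and GCV1, at the low end, are shown for the stress response element STRE (AGGGG) and the Gcn4 site (TGACTC), in capitals on either strand.
HSP12, chrVI:107006-107305, plus strand: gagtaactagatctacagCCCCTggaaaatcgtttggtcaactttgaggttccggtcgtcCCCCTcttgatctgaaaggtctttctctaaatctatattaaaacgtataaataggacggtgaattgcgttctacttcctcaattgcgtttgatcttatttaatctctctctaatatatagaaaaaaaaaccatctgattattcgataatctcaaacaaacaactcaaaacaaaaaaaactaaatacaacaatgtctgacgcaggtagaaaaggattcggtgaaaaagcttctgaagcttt
GCV1, chrIV:485316-485615, minus strand: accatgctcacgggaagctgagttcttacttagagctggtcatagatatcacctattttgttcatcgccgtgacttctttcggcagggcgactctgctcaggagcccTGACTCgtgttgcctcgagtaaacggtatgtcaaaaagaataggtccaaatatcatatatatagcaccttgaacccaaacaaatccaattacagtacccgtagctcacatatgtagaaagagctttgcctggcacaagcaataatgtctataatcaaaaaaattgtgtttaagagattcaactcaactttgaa
In NSR1 the PAC match began 187 bases and the RRPE match 172 bases before the start. In FAF1 they lay at 83 and 93 bases, so that the order of the elements differed between these genes. A match is a run of letters, not evidence that a factor binds there.

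The lowest gene of the pair was HSP12 (YFL014W, chromosome VI, 107256 to 107585), which codes for a small membrane-associated stress protein. HSP12 stood at −3.59 and −3.34 in the pair, against 1.48, 0.37, 1.24 and 0.61 in the other 4, a difference of −4.39. The groups were 3.71 units apart at their nearest columns, the widest gap of any complete ORF. RNA was taken from whole cultures, so fewer cells using the gene and less RNA in each cell cannot be told apart, here or in the results that follow. Its promoter window above held 2 STRE matches on the opposite strand, at 232 and 190 bases before the start. Under the genotype field's names the difference of HSP12 was −1.42.

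Genes of gluconeogenesis and the glyoxylate cycle, which make sugar from acetate and ethanol, followed. PCK1, the gluconeogenic phosphoenolpyruvate carboxykinase, stood at −2.23 and −2.43 in the pair, against 1.55, 0.59, 1.23 and 1.62 in the other 4, a difference of −3.57. MLS1, the malate synthase of the glyoxylate cycle, had −1.89 and −1.90 in the pair, against 1.26, 0.46, 0.99 and 1.56 in the other 4 (difference −2.96). ICL1, the isocitrate lyase that precedes it, had −1.60 and −2.01 in the pair, against 0.78, 0.24, 0.60 and 1.07 in the other 4 (difference −2.48). For all 3 genes both columns of the pair were far below the rest, and RXT3 T73 was the lowest of the other 4. FBP1, fructose bisphosphatase, stood at −1.68 and −1.14 in the pair, against 0.99, −0.32, 0.66 and 1.09 in the other 4 (difference −2.01), with a narrower gap because the RXT3 T73 strain was itself below 0.

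Of the 11 complete genes in the list of gluconeogenesis and the glyoxylate cycle, 5 were at least 1 unit lower in the pair and none was as much higher. IDP2, the cytosolic isocitrate dehydrogenase, was the fifth, with a difference of −1.15. Below all 4 others in both columns were 6 of the 11, SFC1, the carrier that exchanges succinate for fumarate, being the additional one at −0.95. Over all complete ORFs 1.98% were at least 1 unit lower and 18.4% below all 4 others. The median of the list was −0.95, beside −0.05 over all complete ORFs, and it lay between −1.08 and −0.76 when each column was left out in turn. Under the genotype field's names the median was −0.59.

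The neighbouring list of acetyl-CoA formation, carnitine shuttle and use of ethanol and acetate did not move as a block, with a median of −0.06. Of its members 7 were above 0 and 10 below, beside 44.8% and 55.2% of all complete ORFs. CAT2, the main carnitine acetyltransferase, stood at 1.11 and 1.23 in the pair, against −0.52, 0.06, −0.63 and −0.06 in the other 4 (difference 1.46). ACS1, an acetyl-CoA synthetase used on non-fermentable carbon, had 1.15 and 1.23 in the pair, against −0.30, 0.51, −0.44 and −0.39 in the other 4 (difference 1.35). CRC1, the mitochondrial carnitine carrier, had 0.96 and 0.64 in the pair, against −0.25, −0.28, −0.29 and −0.18 in the other 4 (difference 1.05). These 3 genes were above all 4 others in both columns of the pair. In the opposite direction ADH2, the alcohol dehydrogenase that oxidises ethanol, differed by −1.18, and JEN1, a lactate and pyruvate permease, by −1.15. YAT2, another carnitine acetyltransferase gene, differed by −0.76 and was below all 4 others, while YAT1 stood at −1.31 and 0.12 in the pair and overlapped them. Genes of 1 shuttle thus stood on opposite sides of the contrast.

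**Figure D2:**
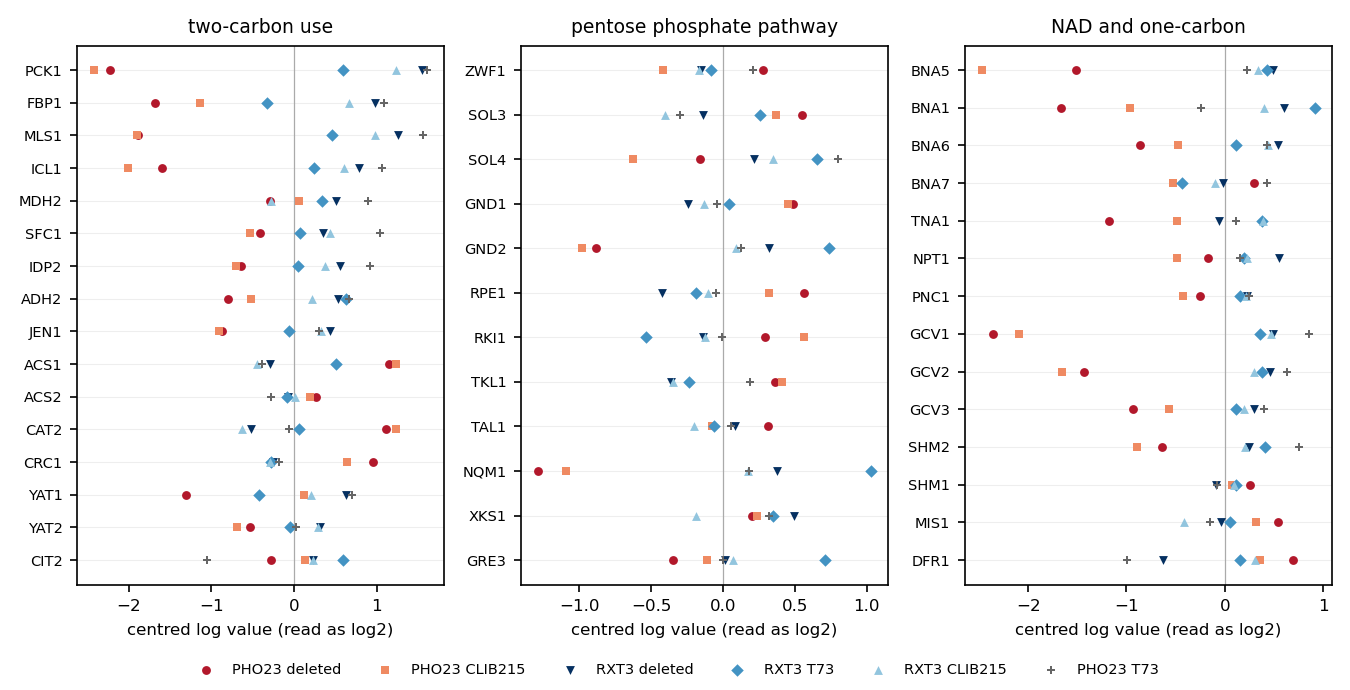
Centred log values (horizontal axis, read as log2) of single genes of carbon use, the pentose phosphate pathway, and NAD and one-carbon metabolism in all 6 columns. Red circles (PHO23 deleted) and orange squares (PHO23 CLIB215) form the pair, and blue and grey marks are the 4 other columns. PCK1, MLS1, GCV1 and BNA5 show the pair far to the left, ACS1 and CAT2 to the right, and XKS1 shows the columns mixed.

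Respiratory genes differed by smaller amounts. Of 34 complete genes of the respiratory chain and ATP synthase, 32 were below 0 and 27 were below all 4 others in both columns, with a median of −0.38. Over all complete ORFs 55.2% were below 0 and 18.4% below all 4 others. COX9, a small subunit of cytochrome c oxidase, was the lowest at −1.07, and COX4, another subunit, differed by −0.73. NDE2, an external NADH dehydrogenase, was the exception past 1 unit, at 1.02. The median of the respiratory chain and ATP synthase list lay between −0.41 and −0.32 with each column left out, and was −0.15 under the genotype field's names. Of 17 genes of the mitochondrial citric acid cycle 15 were below 0, with a median of −0.19, none past 1 unit and 7 below all 4 others.

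The pentose phosphate pathway, by which xylulose enters metabolism, split between paralogs. GND1, the major phosphogluconate dehydrogenase, stood at 0.48 and 0.45 in the pair, against −0.24, 0.04, −0.13 and −0.04 in the other 4 (difference 0.56). Its paralog GND2 stood at −0.88 and −0.98 in the pair, against 0.32, 0.74, 0.09 and 0.13 in the other 4 (difference −1.25). For both genes the groups did not overlap, and they lay in opposite directions. The phosphogluconolactonase genes did likewise, SOL3 with a difference of 0.61 and SOL4 with −0.90. NQM1, a transaldolase gene, stood at −1.29 and −1.09 in the pair, against 0.38, 1.03, 0.18 and 0.18 in the other 4 (difference −1.63), whereas the columns of the major transaldolase gene TAL1 overlapped (difference 0.15). The low paralogs of these 3 activities (GND2, SOL4 and NQM1) had their highest or second highest value of the 4 in RXT3 T73. Whether reads of paralogs were shared is not stated.

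Transketolase TKL1, ribulose phosphate epimerase RPE1 and ribose phosphate isomerase RKI1 were above all 4 others in both columns of the pair, with differences of 0.57, 0.63 and 0.63. XKS1, the xylulokinase that phosphorylates the sugar these cells were given, stood at 0.20 and 0.24 in the pair, against 0.50, 0.35, −0.19 and 0.32 in the other 4 (difference −0.02). Its columns overlapped. GRE3, an aldose reductase, was slightly below all 4 others (difference −0.43). Of the 16 complete members of the pathway list 7 were above all 4 others and 4 below them, beside 16.3% and 18.4% of all complete ORFs, with a median of 0.24.

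The highest gene of the pair was OPI3 (YJR073C, chromosome X, 572315 to 572935), a methyltransferase of phosphatidylcholine synthesis. OPI3 stood at 1.78 and 1.69 in the pair, against −0.80, −0.08, −0.70 and −0.70 in the other 4, a difference of 2.30. Its groups were 1.77 units apart, the widest gap on the higher side. CHO2, which adds the first methyl group in the same route, stood at 0.88 and 0.37 in the pair, against −0.28, 0.27, −0.20 and −0.02 in the other 4 (difference 0.68). SAM2, which makes the methyl donor S-adenosylmethionine, had 1.02 and 0.80 in the pair, against −0.44, −0.24, −0.93 and −0.41 in the other 4 (difference 1.41). All 3 were above the 4 others in both columns. PIS1, the phosphatidylinositol synthase, and ITR1, the inositol transporter, also lay above all 4 others, with differences of means of 0.79 and 0.66. The list of phospholipid and inositol synthesis as a whole was mixed, with 18 of 29 members above 0, a median of 0.05 and OPI3 alone past 1 unit. Over all complete ORFs 44.8% were above 0 and 2.06% at least 1 unit higher. The inositol-sensitive element UASINO (CATGTGAA) was found in 7 of the 29 windows, beside 0.659% of all 4858 promoters read, and not in the window of OPI3.

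Among the other highest genes, CPP3, a short ORF (chromosome IV, 521314 to 521469), stood at 1.25 and 1.45 in the pair, against −0.80, −0.47, −0.61 and −0.73 in the other 4 (difference 2.01). GFD2 had 1.64 and 1.04 in the pair, against −0.43, 0.57, −0.50 and −1.04 in the other 4 (difference 1.69). The other 4 strains spread widely for GFD2, so its gap was only 0.47. CAR1, arginase, the first enzyme of arginine breakdown, stood at 1.16 and 1.38 in the pair, against −0.64, 0.09, −0.60 and −0.43 in the other 4 (difference 1.66). PHO5, the repressible acid phosphatase, had 0.75 and 1.52 in the pair, against −0.36, −0.50, −0.43 and −0.13 in the other 4 (difference 1.49). RAS1, a GTPase of the protein kinase A pathway, had 0.80 and 1.15 in the pair, against −0.82, 0.17, −0.63 and −0.73 in the other 4 (difference 1.47). For each of these genes the groups did not overlap. PHO5 was carried more by the CLIB215 strain, with differences of 1.87 without the deletion column and 1.11 without the CLIB215 column.

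**Figure D3:**
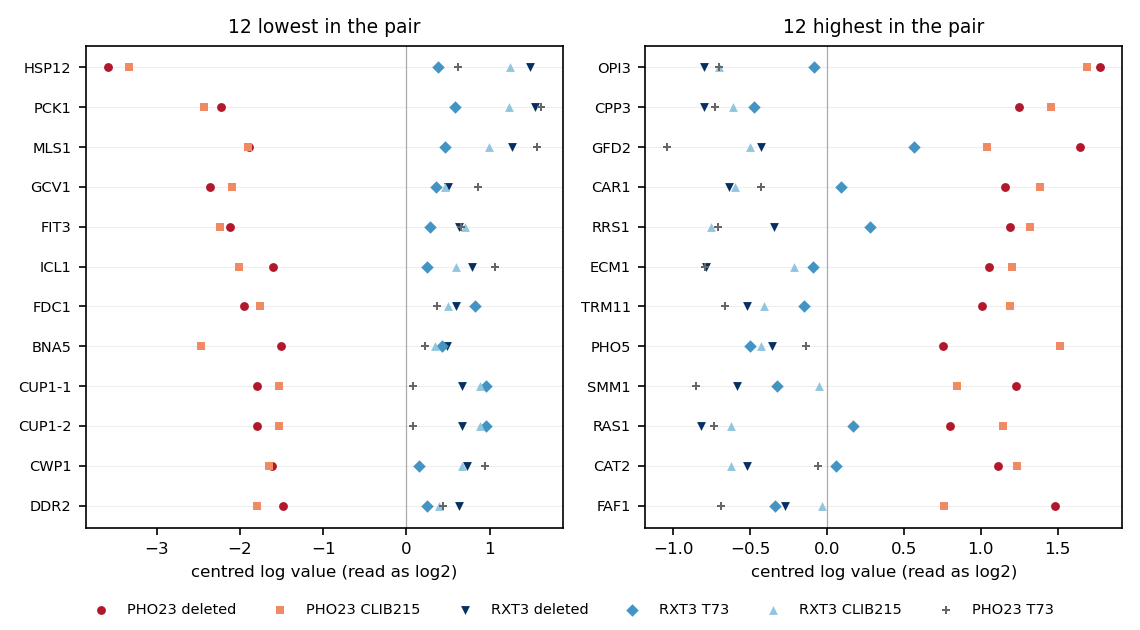
Centred log values (horizontal axis, read as log2) in all 6 columns for the 12 ORFs lowest in the pair (left) and the 12 highest (right), ordered by the difference. Red circles and orange squares are the PHO23 deleted and PHO23 CLIB215 columns, blue and grey marks the 4 others. Only annotated ORFs whose groups did not overlap were drawn, so the marks of the pair stand clear of the rest in all 24 rows by selection. The pair runs from HSP12 at −3.59 and −3.34 to OPI3 at 1.78 and 1.69. Blue diamonds (RXT3 T73) are often the nearest of the other 4 on the right.

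Of the lists compared, the assembly of ribosomal subunits had the highest medians. Of 70 complete genes of the small subunit processome and 40S assembly 68 were above 0, 15 were at least 1 unit higher and 49 were above all 4 others, with a median of 0.63. Of 76 genes of 60S assembly and export 73 were above 0, 16 at least 1 unit higher and 57 above all 4 others, with a median of 0.73. No member of either list was as much as 1 unit lower, and these 31 genes were 31 of the 102 higher ORFs. Over all complete ORFs 44.8% were above 0, 2.06% at least 1 unit higher and 16.3% above all 4 others. The medians lay between 0.56 and 0.73 for the small and between 0.64 and 0.84 for the large subunit list with each column left out. Since most members of both lists lay above all 4 others, leaving out a column could not turn the sign of these medians. They were 0.32 and 0.39 under the genotype field's names.

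RRS1, needed for the large subunit, stood at 1.19 and 1.32 in the pair, against −0.34, 0.28, −0.76 and −0.71 in the other 4 (difference 1.63). ECM1, an export factor of the large subunit, had 1.05 and 1.20 in the pair, against −0.79, −0.09, −0.22 and −0.79 in the other 4 (difference 1.60). NSR1, the yeast nucleolin, had 1.13 and 1.14 in the pair, against −0.00345, 0.05, −0.65 and −0.40 in the other 4 (difference 1.39). Both columns of the pair were above 1 for these 3 genes, and none of the other 4 exceeded 0.28. FAF1, of small subunit assembly, differed by 1.45 and was higher in the deletion (1.48) than in the CLIB215 strain (0.76). Exceptions below 0 were few, TIF6, which keeps the subunits apart, at −0.49 and ESF1 at −0.48 being the lowest.

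Related machinery lay on the same side by smaller amounts. Shares of all complete ORFs for comparison were 44.8% above 0, 2.06% at least 1 unit higher and 16.3% above all 4 others. Of 39 genes of RNA polymerases I and III 30 were above 0, with a median of 0.35 and none past 1 unit. RPA135 and RPA190, the large subunits of polymerase I, differed by 0.88 and 0.76, and MAF1, the repressor of polymerase III, by −0.59. Enzymes of tRNA modification had 38 of 49 members above 0, a median of 0.40 and 5 at least 1 unit higher, with TRM11, a tRNA guanosine methyltransferase subunit, at 1.53 and SMM1, a dihydrouridine synthase, at 1.49. The genes for the ribosomal proteins themselves differed by less than those of assembly, but almost without exception. For the large subunit 79 of 81 were above 0 and 67 above all 4 others (median 0.33), and for the small subunit 53 of 56 and 48 (median 0.37), with none past 1 unit. Many are paralogs that may share reads. The 73 genes of the mitochondrial ribosome lay on the other side, with 59 below 0, beside 55.2% of all complete ORFs, and a median of −0.18.

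**Figure D4:**
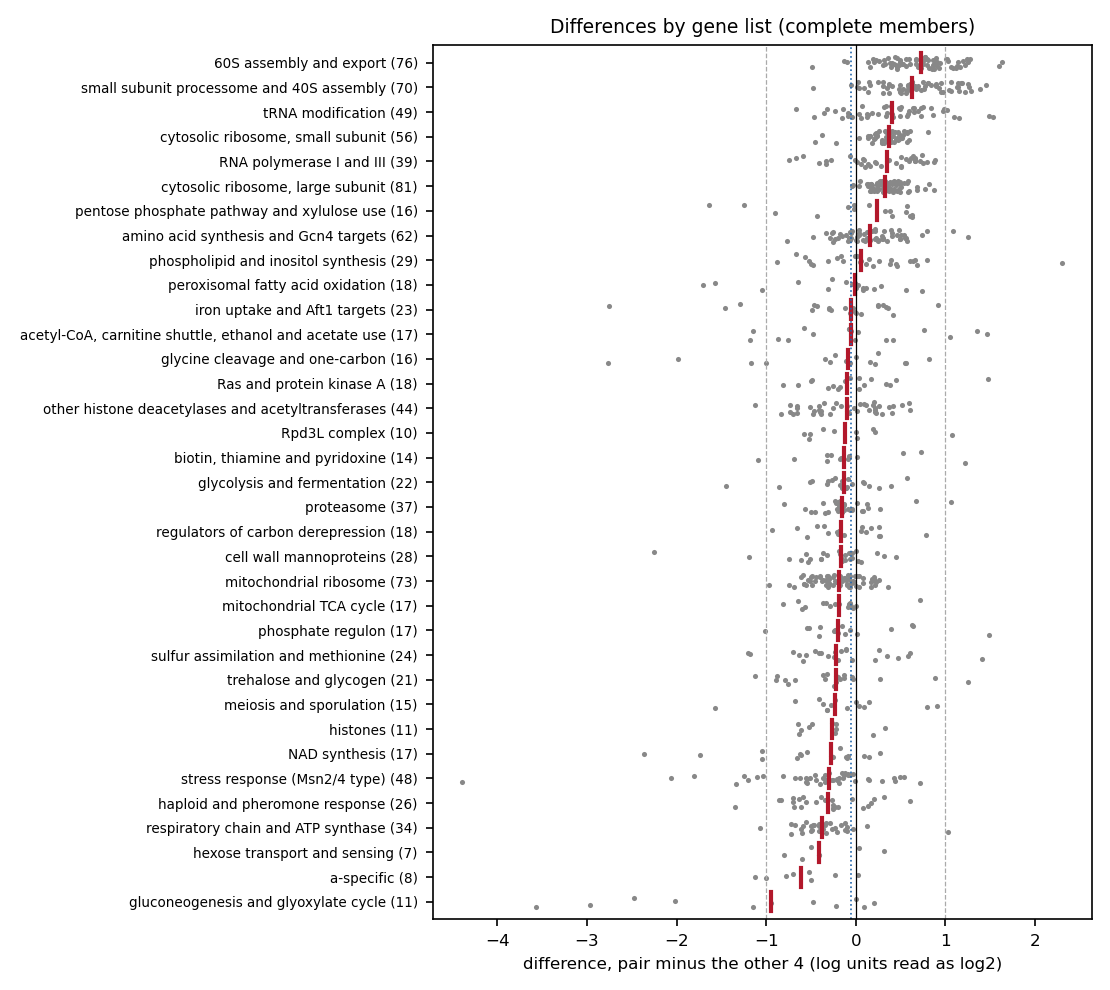
Difference of the pair minus the 4 other columns (horizontal axis, log units read as log2) for every complete member of the 35 gene lists with at least 5 such members, with the number of members in brackets. Red bars are list medians, ordered from 0.73 for 60S assembly at the top to −0.95 for gluconeogenesis at the bottom, the blue dotted line is the median of all complete ORFs (−0.05) and the dashed lines mark 1 unit.

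The promoters, which the choice of columns did not use, differed between the ends of the contrast. PAC was present in 36 of the 100 windows of higher ORFs that could be read, in 1 of 97 windows of lower ORFs and in 4.55% of all 4858. RRPE, which reads the same on both strands, was present in 41 of the 100, in 5 of the 97 and in 10.2% of all. Both elements together were found in 24 of the 100 higher windows, in none of the 97 lower ones and in 2.26% of all. Much of this went with the assembly lists, whose 31 higher members held PAC in 24 windows and RRPE in 26. The 69 other higher ORFs held PAC in 12 windows (17.4%) and RRPE in 15 (21.7%). They are defined only by absence from those lists, and whether some of them also act in ribosome assembly was not examined. Ribosomal protein genes, although on the same side of the contrast, held PAC in 1 of 81 windows of the large subunit and in none of 56 of the small. Among all ORFs whose groups did not overlap, PAC was in 16.1% of windows above and 0.894% below.

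The URS1 core, the element that Ume6 recognises, was found in 13 of the 100 higher windows, in 6 of the 97 lower ones and in 4.34% of all. For ORFs whose groups did not overlap the share was nearer to that of all windows, 6.42% above and 4.02% below. The 13 included CAR1, ACS1, RRS1, MPP10, NOP2 and UME6, and the ACS1 window held 2 matches, 225 bases before the start and, on the opposite strand, 128 bases before it. STRE was found in 26.8% of lower windows, 20% of higher ones and 22.3% of all. Among ORFs whose groups did not overlap it was in 30.8% of windows below and 18.1% above, and the stress list held it in 31 of 48. The Gcn4 site was in 16 of 97 lower windows (16.5%), 6 of 100 higher ones and 8.54% of all, but in 8.72% of windows of ORFs below all 4 others and 7.68% of those above. The CSRE core (TCATCCG), the Aft1 site (TGCACCC) and the pheromone response element PRE (TGAAACA) were each in fewer than 10 windows of either set, and the CCAAT box (CCAAT) was in 43% of higher, 48.5% of lower and 44.6% of all windows.

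**Figure D5:**
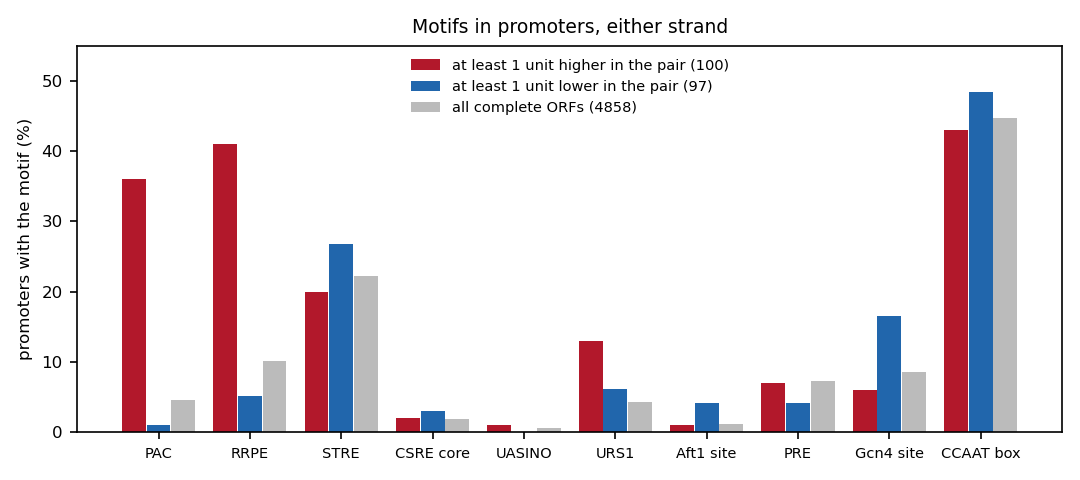
Percentage of promoter windows (vertical axis) that hold each of 10 motifs on either strand, for ORFs at least 1 unit higher in the pair (red, 100 windows), at least 1 unit lower (blue, 97) and all complete ORFs (grey, 4858). PAC and RRPE stand out among the higher ORFs at 36% and 41%, beside 4.55% and 10.2% of all. The Gcn4 site is in 16.5% of the windows of lower ORFs, beside 8.54% of all.

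UME6 itself was among the higher ORFs. It stood at 1.24 and 0.45 in the pair, against 0.28, −0.45, −0.57 and −0.19 in the other 4 (difference 1.08). The deletion column was the high one, the gap to the nearest of the other 4 was 0.17, and the difference was −0.19 under the genotype field's names. RPD3, the catalytic subunit, stood at −0.42 and −0.33 in the pair, against 0.24, 0.04, 0.14 and 0.13 in the other 4 (difference −0.51), and was below all 4. RXT3 differed by −0.37. ASH1 and DEP1 differed by −0.58 and −0.52 with overlapping columns. Of the 10 complete genes of the complex 5 were above 0 and 5 below, with a median of −0.12. Among other histone deacetylases and acetyltransferases 1 of 44 passed 1 unit, HDA2 of the Hda1 complex at −1.13. That is near the share of all complete ORFs, of which 2.06% were as much higher and 1.98% as much lower. Of 11 histone genes 9 were below 0 and 8 below all 4 others, beside 55.2% and 18.4% of all complete ORFs, the median being −0.27.

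HSP12 belongs to a list of 48 complete genes of the Msn2 and Msn4 stress response, named after the activators that bind STRE. Of the 48, 40 were below 0, 8 at least 1 unit lower and 19 below all 4 others, with a median of −0.30. The shares of all complete ORFs were 55.2%, 1.98% and 18.4%. DDR2 differed by −2.06, the glutathione peroxidase gene GPX1 by −1.80, the heat shock genes SSA4 and HSP26 by −1.34 and −1.21. HSP104, the disaggregase, differed by −0.15 with overlapping columns. The list's median lay between −0.35 and −0.18 with each column left out, and was −0.03 under the genotype field's names. Of 21 complete trehalose and glycogen genes 18 were below 0, the median being −0.22, with PGM1, a phosphoglucomutase, at 1.26 on the other side.

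One-carbon and NAD metabolism held single steps that stood far below the rest of their lists. GCV1, a subunit of the mitochondrial glycine decarboxylase, stood at −2.36 and −2.09 in the pair, against 0.50, 0.36, 0.47 and 0.86 in the other 4 (difference −2.77). GCV2 of the same enzyme had −1.43 and −1.66 in the pair, against 0.46, 0.38, 0.30 and 0.63 in the other 4 (difference −1.99). GCV3 differed by −1.01 and SHM2, the cytosolic serine hydroxymethyltransferase, by −1.17. All 4 genes lay below every other column, whereas the mitochondrial SHM1 differed by 0.16 with overlapping columns and MIS1 and DFR1, folate enzymes, were above all 4 others, with differences of means of 0.56 and 0.82. Of 16 windows in this list 9 held the Gcn4 site, that of GCV1 at 143 bases before the start. Of the 62 complete genes in the list of amino acid synthesis and Gcn4 targets 42 were above 0, with a median of 0.16. Over all complete ORFs 44.8% were above 0.

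BNA5, the kynureninase of NAD synthesis from tryptophan, stood at −1.51 and −2.47 in the pair, against 0.49, 0.43, 0.34 and 0.22 in the other 4 (difference −2.36). BNA1, a dioxygenase of the same route, had −1.66 and −0.97 in the pair, against 0.60, 0.92, 0.40 and −0.24 in the other 4 (difference −1.74). The pair was the lowest in both genes, with its own columns about 1 unit apart for BNA5. BNA6 of the same route differed by −1.05 and TNA1, the nicotinic acid permease, by −1.04. The salvage genes NPT1 and PNC1 were also below all 4 others, with differences of means of −0.61 and −0.55. In all, 14 of 17 complete genes of the NAD list were below 0 and 7 were below all 4 others, beside 55.2% and 18.4% of all complete ORFs, with a median of −0.28. That list is not of enzymes alone, since it counts the repressor gene SUM1, at −0.66 and below all 4 others. Under the genotype field's names BNA1 and TNA1 turned to 0.20 and 0.13.

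Other ORFs with large negative differences follow. FIT3, a cell wall protein that retains iron carriers, stood at −2.12 and −2.24 in the pair, against 0.63, 0.28, 0.71 and 0.66 in the other 4 (difference −2.75). FIT2, its neighbour on chromosome XV, differed by −1.46 and the vacuolar metal transporter gene COT1 by −1.29. The list of iron uptake as a whole did not share this, with 9 of 23 members above 0 and a median of −0.05. CWP1, a cell wall mannoprotein, stood at −1.62 and −1.65 in the pair, against 0.73, 0.15, 0.66 and 0.94 in the other 4 (difference −2.25). Of the 28 complete genes of its list 23 were below 0, 2 at least 1 unit lower and 10 below all 4 others, with a median of −0.16. Over all complete ORFs these shares were 55.2%, 1.98% and 18.4%. CUP1-1, a metallothionein, had −1.80 and −1.53 in the pair, against 0.67, 0.96, 0.88 and 0.07 in the other 4 (difference −2.31). CUP1-2 held identical values, as did the adjoining RSC30 and YHR054C between themselves (difference −1.87), and whether these copies share reads is not stated. How many copies each strain carries was not measured here. FDC1, a decarboxylase of phenolic acids, stood at −1.95 and −1.76 in the pair, against 0.59, 0.83, 0.50 and 0.36 in the other 4 (difference −2.43).

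Mating genes were lower in the pair by moderate amounts. Of the 8 genes listed as a-specific 7 were below 0, AXL1 (−0.52) among them, with a median of −0.61, and 4 were below all 4 others. Over all complete ORFs 55.2% were below 0 and 18.4% below all 4 others. MFA1, a gene of the a-factor pheromone, stood at −0.97 and −0.60 in the pair, against 0.19, 1.02, 0.40 and −0.24 in the other 4 (difference −1.13). MFA2 differed by −1.004, the receptor gene STE2 by −0.78 and the protease gene BAR1 by −0.70. Of 26 genes of the haploid state and pheromone response 20 were below 0, with a median of −0.31. These values depended on the naming of the columns, since under the genotype field MFA1 and MFA2 turned to 0.37 and 0.17, and the pheromone list to 0.02.

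Within the pair, the deletion and the CLIB215 allele were as close for the ORFs at the ends of the contrast as for any other. The median distance between their columns was 0.241 units for the 102 higher ORFs, 0.270 for the 98 lower ones and 0.265 for all. The columns of the 4 others were spread over a median range of 0.749 units for the higher ORFs and 0.562 for the lower ones, beside 0.505 for all. For 63 of the 102 higher ORFs the nearest of the 4 was RXT3 T73, as it was for 38 of the 98 lower ORFs. That column was the nearest for 35.5% of the 806 ORFs above and 37.1% of the 912 below. How often it was the highest or the lowest of the 4 over all complete ORFs was not counted. RXT3 T73 is 1 of the 3 whose title and genotype field disagree, the field naming it the PHO23 deletion. The single higher ORF whose groups overlapped was RRT1, at 0.82 and 0.74 in the pair and 0.75 in RXT3 T73. With each column of the pair taken alone, 144 ORFs were at least 1 unit higher in the deletion and 123 in the CLIB215 strain, and 136 and 164 were as much lower.

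The bound of 1 unit fell in a continuous range. EFM4 and MRD1 lay just inside on the higher side at 1.002 and 1.007, and DMA2 and YPL119C-A just outside at 0.996 and 0.993. On the lower side MFA2 and GCV3 lay just inside at −1.004 and −1.005, and RSN1 and EDC2 just outside at −0.999. Chromosome medians ran from −0.13 for chromosome VI to 0.01 for chromosome X. Of ORFs past the bound, 10 pairs were direct neighbours on the same side of it, among them OPI3 and MOG1, which are transcribed away from each other and differed by 2.30 and 1.20, and CRC1 and RAS1, likewise divergent, at 1.05 and 1.47. The adjoining CUP1-1, YHR054C, CUP1-2 and RSC30 on chromosome VIII formed 2 of the lower pairs.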

How the data were processed

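The authors deposited 1 table of centred log2-scale values with 1 column per strain. No base is written for the logarithm, which is read as log2. The submitters' processing notes name Bowtie and build R64, with neither version nor role, and per the labels' protocols the libraries were made from poly-dT-selected RNA with primers carrying unique molecular identifiers. Normalization, centring, the minimum for a value and the pooling of 3 libraries are not stated in the sources at hand. Of 6701 rows, 51 had no ORF name and were left out. Per-sample columns not used numbered 0. No counts or replicates were at hand, so no model was fitted.

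Differences of column means were computed with Python 3.11.15, pandas 2.3.3 and numpy 2.4.6, after the calculation had been tested on simulated data, and plotted with matplotlib 3.10.9. Columns were matched to strains by title. The members and the 37 gene lists were chosen with earlier results of these data known. Genes were named as the 12 largest differences in each direction without overlap, the 6 widest gaps, up to 5 leading members of each list with at least 5 complete members, the Rpd3L genes, and 2 ORFs on either side of the bound of 1 unit. Genes outside that rule were picked after their values were seen. They are ACS1, CRC1, DFR1, ESF1, GND2, GRE3, HSP104, HSP26, MAF1, MIS1, MOG1, MPP10, NDE2, NOP2, NPT1, NQM1, PGM1, PNC1, RRT1, RSC30, SAM2, SFC1, SHM1, SOL4, TAL1, TIF6, XKS1 and YHR054C. Promoter windows of 300 bases came from the RefSeq genome of build R64, by annotated ORF start, for the 4858 complete ORFs with an annotation entry. A further promoter sequence is not reported here. Alternatives were naming by the genotype field, each column left out, the median of the 4, centring, scaling and another filter on missing values.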

Additional observations from a re-analysis of the deposited data

How the results depend on the processing

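No paired analysis was possible because the pooled columns carry no replicate number. Under the genotype field's names the contrast gave 7 higher and 11 lower ORFs, and 222 above and 304 below all others, while 4 of the 102 higher and 6 of the 98 lower ORFs were kept, and 5 of the 102 and 15 of the 98 changed sign. Of the 194 ORFs named by rule 28 changed sign there, and of the 35 list medians 8. Examples are BNA1 (0.20), TNA1 (0.13), MFA1 (0.37), MFA2 (0.17), PHO4 (0.00092), UME6 (−0.19), STE2 (0.07) and the medians of the haploid and pheromone (0.015), amino acid (−0.016), phospholipid (−0.07) and acetyl-CoA and carnitine (0.09) lists. PHO23 had no value in the column titled as its deletion and −0.07 in the one the field gives that name. Leaving out each column gave 89 to 144 higher and 99 to 164 lower ORFs, and 903 to 1349 above and 1064 to 1627 below all others, where fewer columns make separation easier. None of the 102 and 98 ORFs changed sign when a column was left out. For the 101 higher and 98 lower ORFs whose groups did not overlap, a change of sign was impossible, so this shows nothing about them. The same holds for the median of any list most of whose members lay beyond all other columns on the same side. Among these are the lists of ribosome assembly, of respiratory chain and ATP synthase and of gluconeogenesis. Scaling to a common SD left 55 higher ORFs, fewer because it narrows the columns of the pair. Settings chosen after seeing the data were the 3 columns that title and field name alike (169 higher, 189 lower), the pair against PHO23 T73 alone (169 and 142), where a single column replaces a mean, and the pair against the 3 RXT3 columns (96 and 109). Centring columns on their medians (116 and 88), the median of the 4 (112 and 110) and admitting ORFs with missing values (107 and 104) kept each count within 1.5 times. Motif shares without the 50 bases after the start moved beyond their binomial interval in 6 of 30 cases. All 6 were shares over all complete ORFs, where 4858 windows make the interval narrow, such as STRE from 22.3% to 19.5%. Shares of the higher and lower ORFs stayed within theirs. The interval measures sampling and not the effect of shorter windows. Depth is unknown, so no limit from it can be given.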

Other observations

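Genes outside the lists also stood at the ends of the contrast. Of the 102 higher ORFs 50 and of the 98 lower ones 44 belonged to at least 1 list. Higher ORFs outside them included nucleotide synthesis genes, IMD4 (IMP dehydrogenase) with a difference of 1.24, URA1 (dihydroorotate dehydrogenase) with 1.21 and URA7 (CTP synthase) with 1.01, while ADE2, of purine synthesis, lay on the other side at −1.38. Lower ORFs outside the lists included TYE7, a regulator of glycolytic genes, at −1.70, the polyamine transporter gene TPO1 at −1.51, the maltose permease gene MAL31 at −1.41 and the sterol uptake regulator SUT1 at −1.25. Of the list of peroxisomal fatty acid oxidation 3 of 18 were at least 1 unit lower, POX1, the acyl-CoA oxidase, at −1.71, SPS19 at −1.58 and ECI1 at −1.04, beside a median of −0.0048. Over all complete ORFs 1.98% were as much lower. PHO4, the activator of PHO5, differed by −1.02, opposite to PHO5 at 1.49. Genes outside the lists were picked after their values were seen.

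Of 116 ORFs with a value in exactly 4 columns, 29 had no value in the pair, and of 124 with a value in exactly 2 columns, 10 had both in the pair. No value in either column of the pair but a value in each of the 4 others was found for 29 ORFs, among them BNA2, the first enzyme of NAD synthesis from tryptophan, the hexose transporter gene HXT5, the phosphate transporter gene PHO84, the thiamine transporter gene THI7 and the proline permease gene PUT4. The reverse was found for 10 ORFs, among them SPO13, of meiosis, and AQR1, a drug transporter gene. The deposited minimum for a value is not known, so a missing value is not read as absence of the transcript.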
